A study of Mus musculus with 4 samples.

Results

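Keratins are the intermediate filament proteins of epithelial cells. A filament is built from pairs of 1 acidic type I keratin and 1 basic type II keratin, so a cell makes members of both types together. In the epidermis the dividing basal layer makes Krt5 (type II) with Krt14 (type I) and some Krt15 (type I), and cells that leave the basal layer switch to Krt1 (type II) with Krt10 (type I). Krt2, Krt77, Krt78 and Krt80 are further type II keratins of the suprabasal layers, and Krt15 is also known as a marker of the hair follicle bulge, where follicle stem cells reside.

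These 9 genes were taken by symbol from the 56493 genes of the deposited count table, with Krt5, Krt14 and Krt15 as the basal class and Krt1, Krt10, Krt2, Krt77, Krt78 and Krt80 as the suprabasal class. The libraries came from the epidermal sheet of mouse dorsal skin. In the knockout mice (cKO) Stim1 and Stim2, which encode sensors of the calcium store of the endoplasmic reticulum, were deleted in epithelium by a Cre recombinase under the K14 promoter, and the controls (F/F) carried the floxed Stim1 and Stim2 alleles. Each genotype had 2 libraries. Age, sex, the number of mice behind each library and the Cre status of the controls are not given in the sources used here, and p-values therefore measure the spread between these libraries, which may be technical. The comparison asks how epidermal RNA differs when the sensors are lost.

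Total counts ranged from 118858 in cKO replicate 2 to 322426 in control replicate 2, so that 1 count stood for 11.2 normalised counts (CPM, counts scaled to a common library size after TMM normalisation) in cKO replicate 2 and for 3.19 in control replicate 2. For Stim1 the cKO libraries held 23 and 6 counts and the controls 24 and 62, and for Stim2 they held 0 and 1 against 3 and 18. After scaling for library size the log2 fold changes of Stim1 and Stim2 were -0.98 (SE 0.52) and -3.34 (SE 1.64, from few counts). Neither passed the threshold (edgeR adjusted p 0.671 and 0.635, the latter in a fit to which Stim2 was added). Of the tissue markers, 8 of the 9 keratins were found in every library, and Krt2 was at 0 in cKO replicate 2. Dermal and vascular markers were few, with at most 54 counts over 6 fibroblast genes (607 CPM in cKO replicate 2 and 36.4 to 160.1 CPM elsewhere) and at most 3 over 5 endothelial genes in any library, and Pdgfra, Cdh5 and Kdr were at 0 throughout. Markers of skeletal muscle fell in cKO, with 4 of 6 tested genes called lower, beside 0.189% of all tested genes. The 8 genes of the list summed to 16.2 and 112 CPM in cKO and to 1323 and 958 CPM in control. Their part in the keratin values was not tested. In such bulk samples, fewer cells of a type and less RNA per cell cannot be told apart.

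Krt5, Krt10, Krt77 and Krt78 are shown first by the DNA around their start sites, because Krt10, Krt77 and Krt78 had the most alike profiles among the suprabasal members while Krt5, the basal type II gene, is the contrast. The windows are RefSeq sequences of GRCm38.p6 on the minus strand, each with 250 bases before and 50 after the start. Capitals mark TATA-type letters, searched on both strands as TATAAA, as TATATA (the 2 can overlap) and as GATAAAA, and chosen after the sequences were seen.
Krt5, chr15:101712856-101713155: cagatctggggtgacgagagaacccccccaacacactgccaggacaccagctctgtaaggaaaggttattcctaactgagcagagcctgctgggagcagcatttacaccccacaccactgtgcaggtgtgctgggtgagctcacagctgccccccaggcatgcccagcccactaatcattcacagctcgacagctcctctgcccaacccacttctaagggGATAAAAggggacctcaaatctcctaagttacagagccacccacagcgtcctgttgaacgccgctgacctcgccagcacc
Krt10, chr11:99389315-99389614: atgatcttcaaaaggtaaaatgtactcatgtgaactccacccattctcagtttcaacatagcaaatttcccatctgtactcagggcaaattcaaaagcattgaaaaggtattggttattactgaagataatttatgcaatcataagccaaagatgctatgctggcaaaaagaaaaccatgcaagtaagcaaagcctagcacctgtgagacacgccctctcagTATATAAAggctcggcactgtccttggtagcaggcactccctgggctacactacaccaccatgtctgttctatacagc
Krt77, chr15:101869656-101869955: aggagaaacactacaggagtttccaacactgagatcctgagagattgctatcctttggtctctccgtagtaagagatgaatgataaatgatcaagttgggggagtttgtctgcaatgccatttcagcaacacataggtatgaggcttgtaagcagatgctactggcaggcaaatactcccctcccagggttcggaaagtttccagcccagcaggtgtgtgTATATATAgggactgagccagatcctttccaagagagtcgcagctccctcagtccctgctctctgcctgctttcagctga
Krt78, chr15:101954238-101954537: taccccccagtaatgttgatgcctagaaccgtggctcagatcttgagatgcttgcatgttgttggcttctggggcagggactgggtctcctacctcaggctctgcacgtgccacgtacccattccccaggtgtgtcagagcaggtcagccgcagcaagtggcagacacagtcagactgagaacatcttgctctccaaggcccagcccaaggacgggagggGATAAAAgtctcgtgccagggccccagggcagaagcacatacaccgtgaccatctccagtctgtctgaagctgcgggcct

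The capitals began 30 bases before the start in Krt5, Krt77 and Krt78 and 28 bases before it in Krt10. The motif TATAAA was present in 13.6% of all 32851 windows of this length, the motif TATATA in 5.67% and the motif GATAAAA in 3.45%, and at least 1 of them in 19.6% of windows. Of the 9 genes 6 matched the promoter table, and 5 of these held at least 1 of the 3 motifs. The sixth, Krt14, had a window at the start of its shorter transcript and not of its longest. An AP-1 motif (TGANTCA, in 7.81% of all windows) and an AP-2 motif (GCCNNNGGC, in 16.6%) had no match in the 6 windows. These matches are descriptions of letters and not of bound sites. The coordinates below are those of the deposited table, whose build is GRCm39 per the submitters' processing notes, and differ from those of the windows.

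Within the basal class, Krt14 was the gene with the largest estimated difference, and Krt15 went the other way. Krt14 (ENSMUSG00000045545, chromosome 11, 100093988 to 100098374) had 174 and 271 counts in control replicates 1 and 2, and 1077 and 267 in cKO replicates 1 and 2. On the CPM scale the control libraries were at 928 and 865 and the cKO libraries at 4355 and 3001. Every cKO value lay above every control value, and the control replicates were within 1.07-fold of each other. The means were 3678 ± 957 CPM in cKO and 897 ± 44.6 CPM in control (SD, n = 2), a ratio of 4.1. The log2 fold change was 2.04 with a standard error of 0.44, and the adjusted p of edgeR's quasi-likelihood test was 0.0507, just above the threshold of 0.05. Krt14 therefore stood at the border of a call: DESeq2 (adjusted p 0.000420), limma-voom (0.0368) and a robust edgeR fit (0.0391) made it, while none of the 5 other scalings of library size did, with adjusted p-values of up to 0.0917. Without cKO replicate 2 the adjusted p was 0.00965, and without any of the other libraries it was 0.107 to 0.221.

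Krt15 (ENSMUSG00000054146, chromosome 11, 100022584 to 100026754) was counted 535 and 657 times in control against 208 and 138 in cKO, or 2855 and 2098 CPM against 841 and 1551 CPM. The cKO values lay below the control values. Its means were 1196 ± 502 CPM and 2476 ± 535 CPM (SD, n = 2), with a log2 fold change of -1.06 (SE 0.46, edgeR adjusted p 0.526, unadjusted p 0.0368), so the difference did not pass the threshold. The summed level of hair follicle markers was also lower in cKO, although 0 of the 3 tested genes of that list were called. Its 9 genes summed to 598 and 562 CPM in cKO and 1713 and 1673 CPM in control. Most of that sum was Tchh, a structural protein of the inner root sheath, with 99 and 26 counts against 257 and 398 (adjusted p 0.0677). The bulge and stem-cell genes of the list, Sox9, Lgr5, Lhx2 and Cd34, had at most 8 counts in any library, and Lhx2, with 2 and 7 against 0 and 1, was higher in cKO. Whether follicle content had a part in the Krt15 values was not tested.

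Krt5 (ENSMUSG00000061527, chromosome 15, 101615505 to 101621333), the type II partner of Krt14, did not share its separation. The cKO libraries held 637 and 114 Krt5 counts and the controls 259 and 374, which gave 2576 and 1281 CPM against 1382 and 1194 CPM. The groups overlapped, with cKO replicate 2 between the controls. The log2 fold change was 0.59 (SE 0.45, adjusted p 0.842) and became -0.051 without cKO replicate 1.

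**Figure D1:**
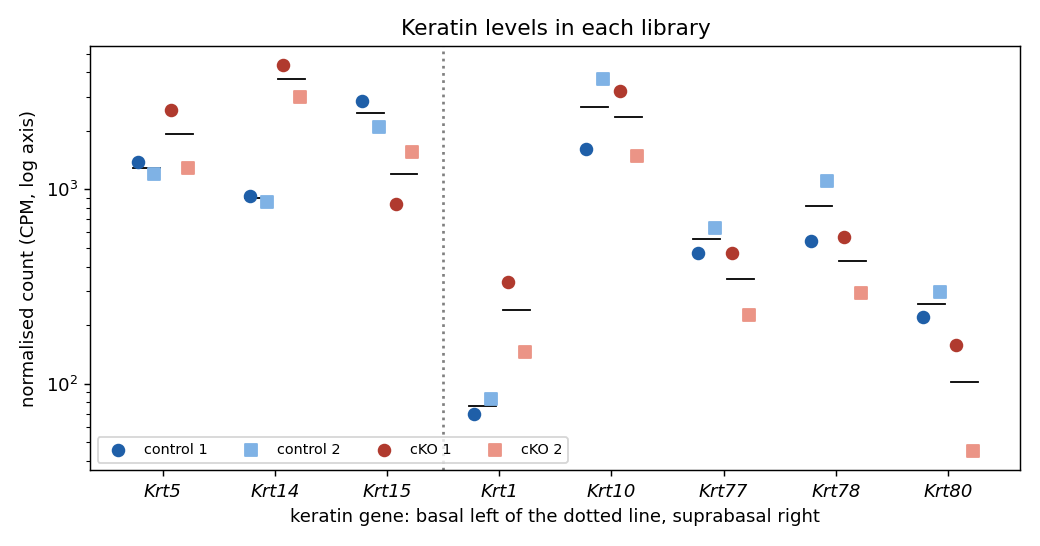
Normalised counts (CPM, log axis) of the 8 keratins that passed the count filter, 1 point per library (circles replicate 1, squares replicate 2), with black lines at the group means. The cKO points lie above the control points for Krt14 and Krt1, below them for Krt15 and Krt80, and overlap or nearly touch them for the rest.

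The suprabasal class was led by Krt10, which did not differ beyond its spread. Krt10 (ENSMUSG00000019761, chromosome 11, 99276080 to 99280190) was counted 794 and 132 times in cKO and 302 and 1162 times in control, or 3210.5 and 1483 CPM against 1612 and 3711 CPM. Replicates of the same genotype differed by 2.16-fold in cKO and 2.30-fold in control, and the ranges overlapped almost entirely. The estimate of -0.18 (SE 0.52, adjusted p 0.992) had no stable direction: leaving out cKO replicate 2 gave 0.28 and leaving out control replicate 2 gave 0.57.

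Krt1 (ENSMUSG00000046834, chromosome 15, 101753861 to 101759229), the type II partner of Krt10, had few counts: 82 and 13 in cKO and 13 and 26 in control. As CPM these were 332 and 146 against 69.4 and 83.0. The cKO values were above the control values, with a log2 fold change of 1.69 (SE 0.52, adjusted p 0.239, unadjusted p 0.00597). The estimate rested on cKO replicate 1, with 0.88 (adjusted p 0.677) when it was left out and 2.11 (adjusted p 0.0130) when cKO replicate 2 was. Krt1 and Krt10 counts were far from equal in every library: there were 0.103 and 0.0985 Krt1 counts per Krt10 count in cKO and 0.0430 and 0.0224 in control. Whether annotation of transcript ends or read mapping had a part in the low Krt1 counts was not tested.

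The other suprabasal type II genes had lower estimates in cKO, none past the threshold. Krt78 (ENSMUSG00000050463, chromosome 15, 101854436 to 101862722) was counted 140 and 26 times in cKO against 101 and 344 in control, or 566 and 292 CPM against 539 and 1099 CPM, and the groups overlapped (log2 fold change -0.91, SE 0.49, adjusted p 0.703). Krt77 (ENSMUSG00000067594, chromosome 15, 101767166 to 101778140) had 116 and 20 against 88 and 199 counts, or 469.0 and 225 CPM against 469.6 and 635 CPM. The lower control and the higher cKO value were thus equal within the worth of 1 count (log2 fold change -0.63, SE 0.46, adjusted p 0.822). Krt80 (ENSMUSG00000037185, chromosome 15, 101245325 to 101268043), a type II keratin of filaments near desmosomes, was counted 39 and 4 times in cKO against 41 and 93 in control. Its CPM were 158 and 45.0 against 219 and 297, so the cKO values lay below the controls. The log2 fold change of -1.21 (SE 0.54, adjusted p 0.557, unadjusted p 0.0417) became -2.56 when cKO replicate 1 was left out, and -0.71 when cKO replicate 2, with its 4 counts, was left out. Krt2 (ENSMUSG00000064201, chromosome 15, 101719124 to 101726604) was counted 1 and 7 times in control against 1 and 0 in cKO, was the only member under the count filter, and gets no fold.

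**Figure D2:**
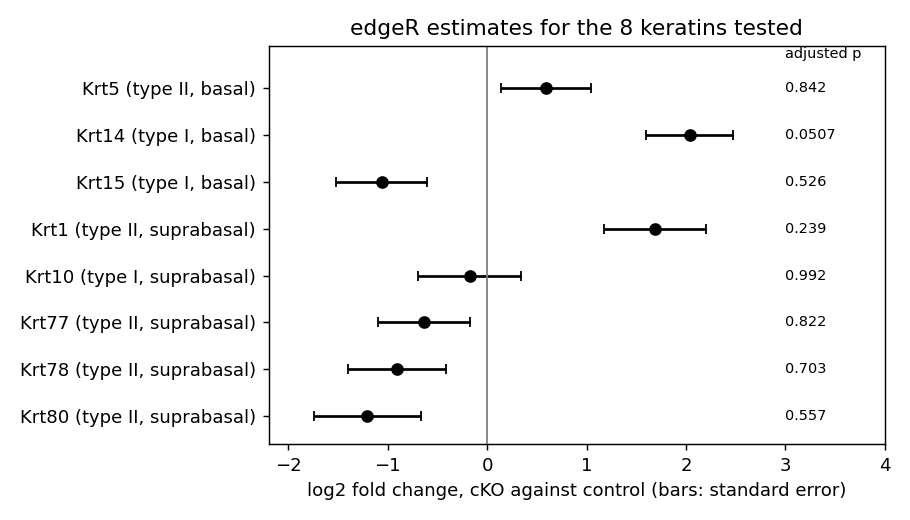
Log2 fold change of cKO against control with its standard error for the 8 keratins tested by edgeR, with adjusted p at the right. Krt14 (2.04) and Krt1 (1.69) lie highest and Krt80 (-1.21) and Krt15 (-1.06) lowest, and no adjusted p is under 0.05.

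With edgeR's quasi-likelihood test, 0 of the 8 tested keratins were called over the 4243 genes tested, of which 0.848% were called in either direction, 0.66% as higher and 0.189% as lower in cKO. DESeq2 and limma-voom each called 1, Krt14. At an unadjusted p under 0.05 there were 4 (Krt14, Krt1, Krt15 and Krt80), against 8.39% of all tested genes. Groups that do not overlap were found for 2 of the 8 tested members as higher in cKO (Krt14 and Krt1), where 18.9% of tested genes show this, and for 3 as lower (Krt15, Krt77 and Krt80, the last with 4 counts in cKO replicate 2), where 19.6% do. In either direction the share over tested genes was 38.5%, so this separation by itself is common with 2 libraries a group. The median log2 fold change of the 8 members was -0.41, beside 0.0070 for all tested genes. The member median became 0.024 when cKO replicate 2 was left out and 0.11 when control replicate 2 was. It became -0.80 without cKO replicate 1 and -0.74 without control replicate 1.

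Ratios between members within a library do not depend on library size. The type II to type I ratio, over all 9 genes, was nearly the same in the controls, 0.498 and 0.499. In cKO it was 0.488 and 0.330, both below the controls, though replicate 1 only slightly. The type II share was 32.8% of member counts in cKO replicate 1 (95% Wilson interval 31.2% to 34.5%) and 24.8% in cKO replicate 2 (21.8% to 28.1%), against 33.2% (30.9% to 35.6%) and 33.3% (31.7% to 34.96%) in the controls. Only cKO replicate 2 stood apart from the controls beyond counting error, which is all these intervals cover. The log2 difference of the ratio was -0.31 and became -0.030 without cKO replicate 2. With counts divided by feature length the ratios were 0.357 and 0.239 against 0.343 and 0.336, and the groups overlapped. Counts from transcript 3' ends need not scale with that length.

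The suprabasal to basal ratio overlapped between the genotypes. It was 0.610 and 0.376 in cKO and 0.564 and 1.41 in control, so that control replicate 2 was the only library with more suprabasal than basal counts. The suprabasal share was 37.9% and 27.3% in cKO and 36.1% and 58.4% in control. The log2 difference was -0.90, with a replicate SD of 0.49 in cKO and 0.93 in control, and it became -0.24 without control replicate 2. Leaving out cKO replicate 2 gave -0.55, and leaving out control replicate 1 gave -1.55. It was -1.68 without Krt15, and -1.39 with Krt5, Krt14, Krt1 and Krt10 as the only members. Per feature length the ratios were 0.471 and 0.285 against 0.408 and 1.06.

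The class sums cover opposite estimates inside the basal class. Together Krt14 and Krt15 were counted 1285 and 405 times in cKO against 709 and 928 in control, and the Krt5 to basal type I ratio overlapped between the groups (0.496 and 0.281 against 0.365 and 0.403). Taken singly, there were 5.18 and 1.93 Krt14 counts per Krt15 count in cKO against 0.325 and 0.412 in control. The log2 difference was 3.11. Krt15 was thus the more counted basal type I keratin in both control libraries and Krt14 in both cKO libraries. There were 0.591 and 0.427 Krt5 counts per Krt14 count in cKO against 1.49 and 1.38 in control. The log2 difference was -1.51, with replicate SDs of 0.33 and 0.077. The Krt10 to Krt14 ratio was 0.737 and 0.494 in cKO against 1.74 and 4.29 in control.

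Inside the suprabasal class, the 5 type II genes together had nearly the same ratio to Krt10 in both cKO libraries. They had 0.476 and 0.477 counts per Krt10 count in cKO and 0.808 and 0.576 in control. Krt78 alone had 0.176 and 0.197 per Krt10 count against 0.334 and 0.296, and Krt80, whose replicates differed more, had 0.0491 and 0.0303 against 0.136 and 0.0800. For Krt78 the Wilson interval of cKO replicate 2 overlapped those of both control libraries. For Krt80 the interval of control replicate 2 overlapped those of both cKO libraries. Krt1 stood the other way, with a log2 difference of 1.70 in its ratio to Krt10. Of 13 ratios between pairs of members, picked by hand and sharing genes, 9 did not overlap between the groups. The same held for 38.3% of all pairs of the 4071 tested genes with a count in every library. As the 13 pairs were picked and not all pairs of members, these shares cannot be compared. The exact permutation test with 2 against 2 libraries cannot go below a two-sided p of 0.333, which these 9 reached (0.481 after Benjamini-Hochberg adjustment over the 13), so that none can pass 0.05.

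**Figure D3:**
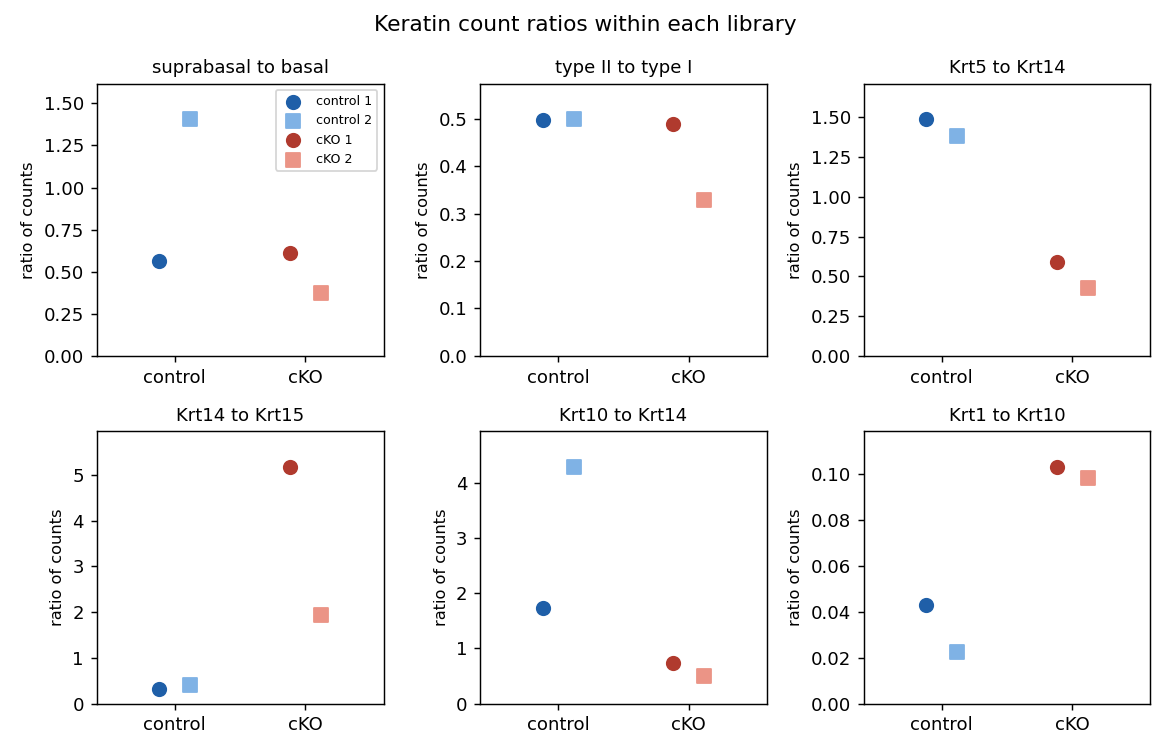
Ratios of deposited counts within each library for the 2 class ratios and 4 of the gene pairs, 1 point per library (linear axes from 0). The suprabasal to basal ratio overlaps between genotypes, while Krt5 to Krt14, Krt14 to Krt15, Krt10 to Krt14 and Krt1 to Krt10 do not. Pairs that overlap, such as Krt10 to Krt5 and Krt1 to Krt14, are not drawn.

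As shares of the member counts, Krt14 made up 34.8% and 37.4% in cKO against 11.5% and 8.65% in control. Krt15 made up 6.72% and 19.3% against 35.3% and 21.0%, and Krt10 25.7% and 18.5% against 19.9% and 37.1%. The 9 genes together took 1.10% and 0.601% of all counts in cKO and 0.756% and 0.972% in control. All 55 keratin genes of the table took 1.52% and 1.05% against 1.27% and 1.77%, and the members were 54.8% to 72.0% of those counts.

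**Figure D4:**
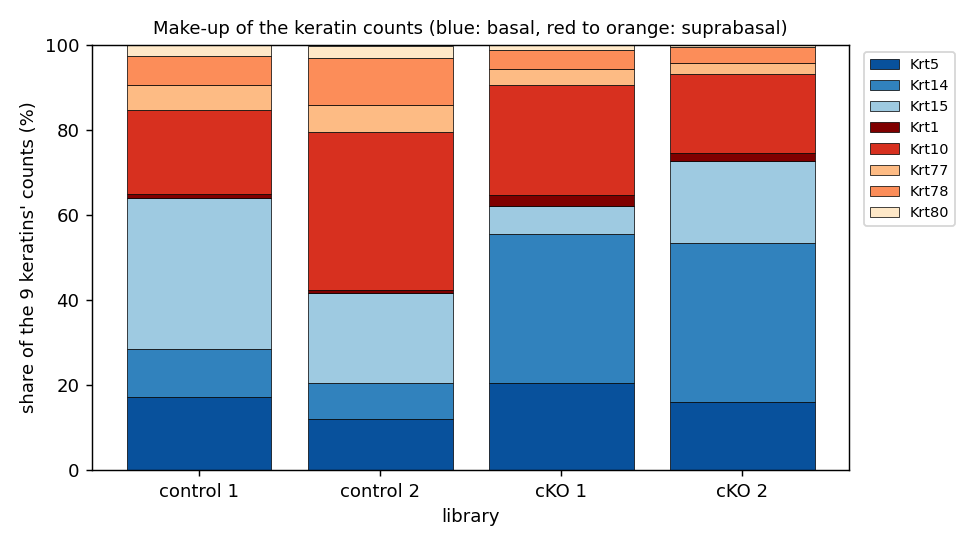
Stacked shares (percent) of the counts of the 9 keratins in each library, basal genes in blue and suprabasal genes in red to orange; Krt2, at most 0.223%, is not drawn. The Krt14 band is the widest in both cKO libraries (34.8% and 37.4%), and Krt15 (35.3%) and Krt10 (37.1%) are the widest in control replicates 1 and 2.

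Levels were ordered between genes per kilobase of feature length, although a library made from transcript 3' ends need not scale with length. In control, Krt15 came first (1616 and 1187 CPM per kilobase), followed by Krt10 (762 and 1755), Krt5 (629 and 544), Krt14 (528 and 492), Krt78 (157 and 320), Krt77 (160.2 and 217), Krt80 (34.2 and 46.5), Krt1 (15.7 and 18.8) and Krt2 (2.04 and 8.55). The neighbours Krt15 and Krt10, and Krt78 and Krt77, overlapped. In cKO the order of the first 4 was Krt14 (2477 and 1707), Krt10 (1519 and 702), Krt5 (1172 and 583) and Krt15 (476 and 878), and the last 3 of these overlapped. By mean CPM over the 4 libraries, Krt10 ranked 34 among all genes of the table, Krt14 39, Krt15 51 and Krt5 56, while Krt78, Krt77, Krt80, Krt1 and Krt2 ranked 195, 325, 1009, 1205 and 9893.

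No member matched a GENCODE M21 transcript of a different gene at 95% identity or more over 150 bases, except Krt80, which shared 195 identical bases with Gm35853, a gene with 1 count in all libraries together. The most alike gene of Krt14 was the stress keratin Krt17, at 90.7% identity over 754 bases, and that of Krt5 was Krt6a, at 86.1% over 266 bases. How reads that fit such pairs were counted is not stated. Exons of Krt5 and Krt10 share 129 and 52 bases with genes on the opposite strand, Gm55161 and Gm11940, both at 0 counts.

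The remaining keratins set the members in context. Among all tested genes 0.66% were called higher in cKO. Of the 4 stress keratins, which the epidermis makes when wounded or inflamed, all were tested and 2, Krt6a and Krt6b, were called higher (117 and 96 counts against 4 and 9, edgeR adjusted p 0.000620; 143 and 53 against 1 and 2, adjusted p 7.79e-05), while Krt17 had 325 and 147 against 621 and 1389 (log2 fold change -1.39, adjusted p 0.264) and Krt16 109 and 68 against 72 and 212 (0.16, adjusted p 0.992). Of 22 keratins of simple and follicle epithelium 3 were tested and 0 called, and 2 of those 3 had an unadjusted p under 0.05. Krt79, a keratin of the upper follicle and sebaceous duct, had 223 and 94 counts against 51 and 80 (log2 fold change 1.89, adjusted p 0.0677). Krt75, a keratin of the follicle companion layer, had 42 and 18 against 81 and 312 (-1.96, adjusted p 0.120), and Krt23 203 and 38 against 159 and 498 (-0.95, adjusted p 0.658). Of the 15 listed hair shaft keratins that are in the table only Krt84 was tested (6 and 6 against 7 and 41 counts, adjusted p 0.820).

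Basal genes other than keratins showed no call. Of 14 such genes 9 were tested, 0 were called and 0 had an unadjusted p under 0.05. Among all tested genes 0.848% were called, so 0 calls in a list of this size is near that share. All 9 estimates were above 0, and the median log2 fold change was 0.13. The transcription factor Trp63, which maintains the basal state and drives Krt5 and Krt14, was counted 106 and 11 times in cKO against 51 and 93 in control (log2 fold change 0.029, SE 0.52, adjusted p 0.998). The largest estimates were those of Itgb1, the beta subunit of the basal integrins, at 0.87, of the laminin receptor Bcam at 0.75 and of the hyaluronan receptor Cd44 at 0.71, with adjusted p from 0.785 to 0.902. Leaving out cKO replicate 1 moved the list's median to -0.74 and leaving out cKO replicate 2 moved it to 0.62, and it was -0.062 with library totals as the only scaling, where the median of all genes was shifted by -0.24.

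Of suprabasal genes other than keratins, some granular genes were called and no spinous gene was, and the difference between the layers was not tested. Of 14 spinous genes, all tested, 0 were called and 1 had an unadjusted p under 0.05. Estimates were above 0 for 12 of them and below 0 for 2, Dsg1a and Ovol1. The median was 0.28. It became 0.93 when control replicate 2 was left out, -0.0075 when control replicate 1 was, and -0.011 with library totals. Dsg1a, a desmosomal cadherin, was counted 257 and 81 times in cKO against 430 and 1020 in control (log2 fold change -1.51, adjusted p 0.184). Ovol1, a transcription factor of early differentiation, was at -1.19 and Calm4, a skin calmodulin-like protein, at 1.09, neither past the threshold. Of 17 granular genes 16 were tested and 3 called, all higher, with 14 estimates above 0 and a median of 1.18. Among all tested genes 0.66% were called higher. The lists were chosen with earlier results of these data known, so these calls are a description. Flg, which encodes the keratin-bundling protein filaggrin, had 2218 and 479 counts against 20 and 98 (log2 fold change 5.07, adjusted p 0.000593). Casp14, a protease that processes filaggrin, had 48 and 11 against 0 and 2 (adjusted p 0.0123), and the filaggrin relative Hrnr had 403 and 43 against 16 and 56 (2.99, adjusted p 0.0329). The 2 estimates below 0 did not pass the threshold. Ivl, which encodes the cornified envelope precursor involucrin, had 152 and 47 counts against 257 and 397 (-1.20, adjusted p 0.359, unadjusted p 0.0125), and the transglutaminase Tgm3 had 12 and 0 against 23 and 50 (-2.15, adjusted p 0.368, unadjusted p 0.0139). The number called was 1 with the replicate block, 7 without cKO replicate 2 and 9 without control replicate 2, and the median was 2.74 when control replicate 2 was left out and 0.34 when control replicate 1 was. Whether the keratins and the granular genes differed in their change was not tested.

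Genes for proteins that tie keratin filaments to cell junctions, or are parts of those junctions, also had 0 calls. Among all tested genes 0.848% were called, so 0 calls in this list or in the list of regulators is near that share. The list of 10, all tested, had a median of -0.50 with 9 estimates below 0 and 1 unadjusted p under 0.05. Plec, a linker of keratins to hemidesmosomes, was at -0.97 (adjusted p 0.581), Eppk1, a plakin that binds keratin networks, at -0.96 (0.716), and Dsp, which anchors keratins to desmosomes, at -0.62 (0.810) with 520 and 143 counts against 408 and 1111. The median was -0.20 when control replicate 2 was left out and -0.84 when cKO replicate 1 was. Of 21 regulators of keratin genes 18 were tested, 0 were called and 3 had an unadjusted p under 0.05, with a median of -0.063. These were Satb1, a chromatin organiser of epidermal gene clusters (3 and 1 counts against 27 and 33, too few in cKO to size the change, adjusted p 0.0736), Ehf, an epithelial ETS factor (65 and 4 against 1 and 16, log2 fold change 2.40, adjusted p 0.363), and Maf, a factor of terminal differentiation (33 and 4 against 43 and 76, -1.26, adjusted p 0.494).

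**Figure D5:**
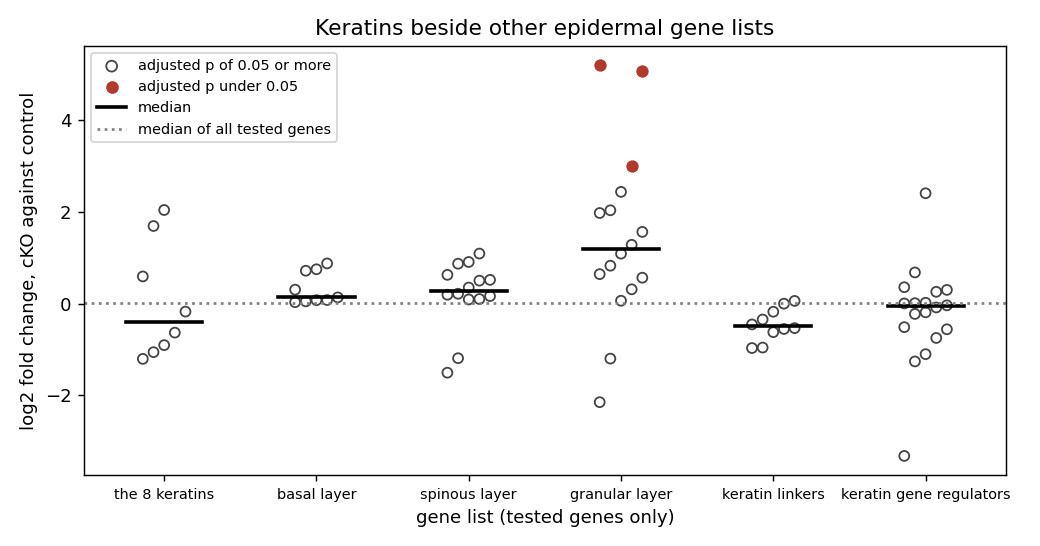
Log2 fold changes (cKO against control) of the tested members and of the tested genes in the basal, spinous, granular, linker and regulator lists, filled where the adjusted p is under 0.05, with black lines at list medians and a dotted line at the median of all tested genes. The keratins span -1.21 to 2.04 around a median of -0.41, and of the 5 other lists drawn only the granular one, with a median of 1.18, holds called genes.

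Profiles were compared by the root mean square distance of centred log2 CPM over the 4 libraries, among the 1964 non-keratin genes whose mean reached 100 CPM. All points share the same libraries and scaling, and 4 points are few, so a small distance is a description. Among the members the closest pair was Krt77 and Krt78, at 0.23, followed by Krt14 and Krt1, at 0.37, and Krt10 and Krt78, at 0.38. The pair of Krt5 and Krt14 was at 0.77 and that of Krt1 and Krt10 at 0.87, so neither textbook pair was each other's nearest member. Krt14 was nearest to Fam162a, a hypoxia-induced mitochondrial protein (168 and 37 against 32 and 44 counts, distance 0.16), 2310046K23Rik (0.20) and Postn, a secreted matrix protein (0.23). Postn was itself called, with 57 and 19 counts against 7 and 11 (log2 fold change 2.61, edgeR adjusted p 0.0330). A gene picked for a profile like that of Krt14 tends to separate the groups, so this call adds no support. Krt5 was nearest to Ckap4, Dusp11 and Dusp22 (0.081 to 0.092), Krt1 to Kif13b, Egln1 and Fam162a (0.20 to 0.27), and Krt10 to Acsl1, Pnkd and Pla2g2f (0.094 to 0.12).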

How the data were processed

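RNA of separated dorsal epidermis was sequenced from 3' transcript ends in 4 libraries. The authors deposited raw whole-number counts per gene, with feature lengths in the file's header columns. Per the submitters' processing notes, which give no roles, the tools were Trim Galore 0.6.7, Trimmomatic 0.39, cutadapt 3.7, STAR 2.7.10a and featureCounts 2.0.1 with GRCm39; use of strand, molecular identifiers and reads with several alignments is not given in the sources used here. Reads counted more than once as PCR copies are not independent, so intervals cover counting error only.

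cKO was compared with control in edgeR 4.0.16 (R 4.3.3) on 4243 genes kept by filterByExpr (minimum count 10, total 15), with TMM scaling, glmQLFit, glmQLFTest and Benjamini-Hochberg adjustment at 0.05. The standard error is the absolute log2 fold change over the root of F. Log2 CPM for profile distances used a prior count of 2. Krt2 was under the filter. DESeq2 1.42.0 and limma-voom (limma 3.58.1) were alternatives. Copies were searched with blastn 2.17.0. On simulated data in which 200 of 4243 genes were given a log2 shift of 3, 77% to 81% were recovered and at most 7.43% of calls were false. That shift is larger than any tested member's estimate (the largest was 2.04, for Krt14). Recovery of changes of the members' size was not tested.

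The members and lists were chosen with earlier results of these data known. Named genes were all members, Stim1 and Stim2, the 3 tested genes of each list with at least 10 CPM and the largest absolute log2 fold change, and the 3 nearest profiles of Krt5, Krt14, Krt1 and Krt10. Trp63, Tchh and the counted bulge genes were chosen after their values were seen. Lists of Langerhans cell, T cell, melanocyte and sebaceous genes summed to 1444 and 3608, 239 and 180, 137 and 427, and 764 and 1731 CPM in cKO replicates 1 and 2, and to 4029 and 2315, 331 and 246, 326 and 86.2, and 747 and 620 CPM in control.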

Additional observations from a re-analysis of the deposited data

How the results depend on the processing

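Krt14, Krt15, Krt1, Krt77, Krt78 and Krt80 kept the direction of their estimates in all 17 alternatives run. With 1 library left out Krt5 ranged from -0.051 (without cKO replicate 1) to 1.007 and Krt10 from -0.89 to 0.57 (0.28 when cKO replicate 2 and 0.57 when control replicate 2 was left out), and the cause was not tested. The number of members called, 0 at first, was 1 without a count filter, with genes of 10 CPM or more on average, with DESeq2, limma-voom, a robust fit, glmQLFit with legacy set to FALSE (added after seeing the data) or a threshold of 0.10, and 0 to 2 with 1 library left out. Of the genes called higher (28) and lower (8), there were 49 and 26 without a count filter, 12 and 3 with limma-voom and 43 and 17 at a threshold of 0.10, and the number of lower genes was 15 with library totals only and also with genes of 10 CPM or more on average. With 1 library left out there were 34 to 59 higher and 8 to 34 lower genes. The replicate numbers are not stated to pair the mice, and same-numbered libraries deviated with a correlation of -0.20 across genes. With the replicate block, 16 genes were higher, 1 was lower and 0 members were called (Krt14 adjusted p 0.281). A crossed block, chosen after seeing the data, put cKO replicate 1 with control replicate 2 and cKO replicate 2 with control replicate 1. It called 90 higher and 57 lower genes and 3 members. Given the negative correlation, this pairing takes up part of the spread between replicates, so its larger numbers are no support. The type II to type I difference of -0.31 was -0.84 without Krt15, and -0.60 to -0.030 with 1 library left out. The suprabasal to basal difference of -0.90 was -1.68 without Krt15, -1.39 with 4 members only (Krt5, Krt14, Krt1 and Krt10), and -1.55 to -0.24 with 1 library left out. The depth of cKO replicate 2, where 3 counts are 33.7 CPM, limits Krt1, Krt2 and Krt80 most. Library sizes from totals moved the median of all genes by -0.24.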
